A study of Homo sapiens with 9 samples.

Results

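RNA sequencing was used to compare, gene by gene, MDA-MB-231 cells that stably carried MEL-18 T334A, a mutant that lacks a phosphorylation site, with cells that carried the empty vector. MDA-MB-231 is an established line of a triple-negative human breast adenocarcinoma. The comparison used 6 of the 9 libraries of the series, namely 3 of cells infected with a pLVX lentivirus encoding MEL-18 T334A and 3 of cells infected with the pLVX vector alone. The other 3 libraries came from cells infected with pLVX encoding wild-type MEL-18 (MEL-18 WT) and entered the estimate of the spread. All groups were grown in DMEM with 10% FBS, and the vector cells carried the lentiviral backbone too. T334A denotes a threonine replaced by alanine in the MEL-18 protein. The sources used here do not state whether the replicates of a group came from separate infections, so the p-values reflect the spread among the libraries, which may be technical. An effect of the construct cannot be told apart from a difference between the transduced lines.

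MEL-18, the product of PCGF2, is a RING finger protein that pairs with the ubiquitin ligase RING1A or RING1B in Polycomb repressive complex 1 (PRC1). That complex places ubiquitin on histone H2A and compacts chromatin, and together with Polycomb repressive complex 2 (PRC2), which methylates histone H3, it keeps developmental genes silent. In breast tissue MEL-18 is known as a paralog of BMI1 and has been described as a tumour suppressor.

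The 6 libraries held 31643722 to 35314497 counts, and 14738 of 26364 genes had enough counts to be tested. T334A replicate 1 had counts for 20323 genes, against 18956 to 19276 in the other 5 libraries. PCGF2 stood at 22.2, 23.7 and 22.3 CPM in the vector libraries and 1419, 1450.1 and 1388 CPM in the T334A libraries, so that every T334A library lay far above every vector library, and in the WT libraries it stood at 1292, 1286 and 1279 CPM. Endogenous and transgenic PCGF2 reads could not be told apart, and PCGF2 was left out of all counts below, which left 14737 genes. The mesenchymal markers fixed for this line summed to 5242 to 5360 CPM in the vector and 5355 to 5452 CPM in the T334A libraries. The luminal receptor genes ESR1 and PGR had 6 and 3 counts in each group's 3 libraries together. Other luminal markers were expressed. The 10 luminal markers summed to 858 to 889 CPM in the vector and 852 to 875 CPM in the T334A libraries. Of 8 luminal markers tested, 3 rose and 2 fell. CPM are edgeR's counts scaled to library size, means are given ± SD over 3 libraries, and log2 fold changes are given ± SE.

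MEL-18 T334A cells differed from vector cells at many genes, most of them by little. At an adjusted p below 0.05 in edgeR's quasi-likelihood test, 6764 genes (45.9% of those tested) were called. Of these, 3454 (23.4%) were higher and 3310 (22.5%) were lower with MEL-18 T334A. Among the calls, 61.04% were changed by less than 1.2-fold, and the median change of a called gene was 1.16-fold. Changes of more than 2-fold were found for 398 genes (2.7%), of which 272 (1.85%) were higher and 126 (0.855%) lower. The libraries of the groups did not overlap at 7582 genes (51.4%). When T334A replicate 1, the library with the most detected genes, was left out, 6084 genes were called, 3199 higher and 2885 lower.

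The direction of the response differed with the level of the gene. Genes were placed in 5 bands by their mean over the 9 libraries, with edges at 1, 5 and 25 CPM and at 5 times the last of these. The upper pair is called the abundant and the most abundant band here. Of 2067 genes at 1 to 5 CPM, 22.8% were higher and 10.4% lower with MEL-18 T334A, and of 3473 genes at 5 to 25 CPM, 31.8% were higher and 14.3% lower. The balance turned in the next band, where 24.4% of 5399 genes of the abundant band were higher and 29.4% lower. Of the 1903 genes of the most abundant band, 17.3% were higher and 46.3% lower. Of the 272 genes more than 2-fold higher, 127 lay under 1 CPM and 96 at 1 to 5 CPM, against 79 and 30 genes more than 2-fold lower. Since a raised gene can enter a band through its T334A libraries, the bands were also set by the mean of the vector libraries alone. There 184 genes were more than 2-fold higher and 66 lower under 1 CPM, and 60 higher and 42 lower at 1 to 5 CPM. That banding favours raised genes in its own way, since a gene hardly expressed in vector cells has little room to fall. A low gene can also pass the filter through its T334A or WT libraries, so neither banding tests the excess of raised low genes. Called genes of the most abundant band had a median change of 1.101-fold, and 0 of them changed by more than 2-fold. The most abundant band held 62.3% of the CPM of the vector group and 61.2% of that of the T334A group.

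The turn between bands depended in part on the scaling. With library totals in place of TMM factors, 64.0% of all calls were higher, against 51.1% with TMM, and in the abundant band the balance reversed to 31.7% higher and 20.8% lower. In the most abundant band the excess of lower genes remained under that scaling, at 33.2% lower and 24.3% higher. Those settings moved the median log2 fold change of all genes from -0.0022 to 0.036.

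**Figure D1:**
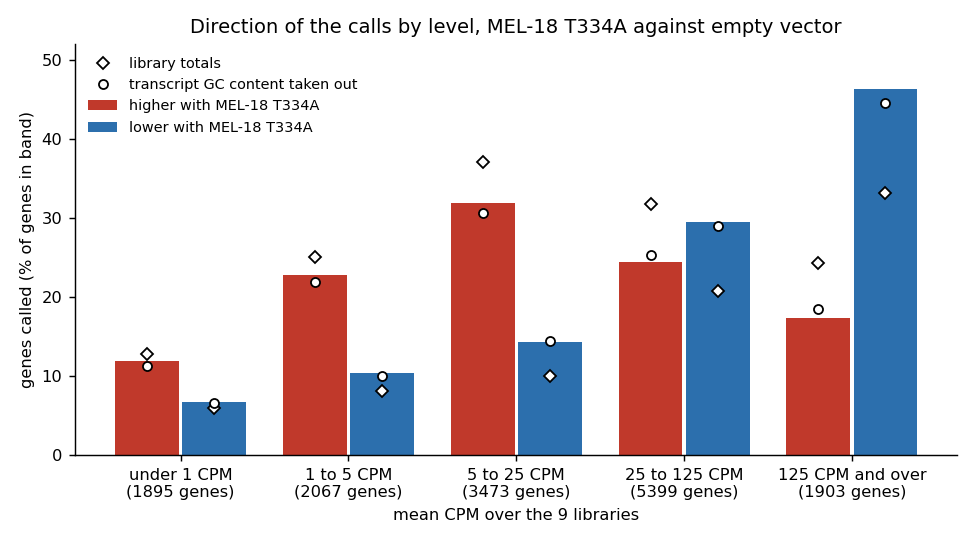
Share of tested genes called higher (red bars) and lower (blue bars) with MEL-18 T334A against the empty vector, in percent of the genes of each band of mean CPM. Diamonds give the shares with library totals in place of TMM and circles those with transcript GC content taken out; lower calls rise from 14.3% to 46.3% between the band at 5 to 25 CPM and the most abundant band.

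Transcript GC content moved with the direction of the calls as well. Genes of each band were split into 4 equal classes of GC content. In the abundant band, 14.4% of genes in the lowest class were higher and 44.01% lower, and in the highest class 34.5% were higher and 17.3% lower. The same order was seen at 5 to 25 CPM, where the lowest class held 21.4% higher and 22.2% lower genes and the highest 44.5% and 7.33%. Across 10334 genes of at least 5 CPM, each library's deviation from the mean of all 9 correlated with GC content at -0.227, -0.0514 and -0.237 in the vector libraries and at 0.0945, 0.312 and 0.159 in the T334A libraries, as a description over genes, which are not independent. When this trend was taken out of each library, a step added after seeing the data, 6697 genes were called. Of these, 5865 were also called in the same direction in the main fit. The bands kept their order, with 30.7% higher and 14.5% lower at 5 to 25 CPM and 18.5% higher and 44.6% lower in the most abundant band.

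**Figure D2:**
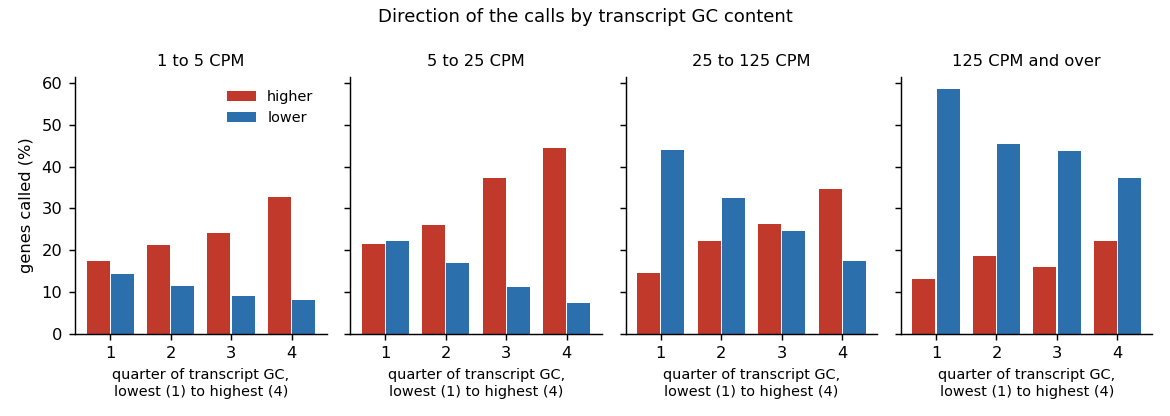
Share of genes called higher (red) and lower (blue) with MEL-18 T334A, in percent, by class of transcript GC content (lowest to highest, 4 equal classes) within each of 4 bands of mean CPM. In the abundant band, the third panel, the lower calls go from 44.01% in the lowest class to 17.3% in the highest.

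Among the most abundant genes that rose, the collagen COL13A1, a transmembrane collagen of cell adhesion sites, stood at 208, 205 and 208 CPM in the vector libraries and 316, 323 and 286 CPM in the T334A libraries. The T334A libraries lay above every vector library, by 1.49-fold (log2 fold change 0.58 ± 0.04, adjusted p = 5.7e-13). COL13A1 lies on chromosome 10, where its neighbours had a median log2 fold change of 0.18. It kept its call when the shift of the neighbours was taken out. In MEL-18 WT cells the same gene was lower than in vector cells, at 159.5, 153 and 163 CPM, and T334A exceeded WT by 0.96 ± 0.04 on the log2 scale (adjusted p = 1.7e-17). EEF1A2, a translation elongation factor that in normal tissue is largely confined to neurons and muscle, rose from 99.6 ± 1.46 to 151 ± 7.96 CPM, the lipid transporter gene ABCA2 rose from 107 ± 5.91 to 159 ± 6.84 CPM, and the beta-tubulin TUBB6 rose from 109.8 ± 4.05 to 156 ± 3.69 CPM. EEF1A2 stood at 142 ± 6.06 CPM in WT cells, and its difference between the mutant and WT (0.08 ± 0.04) did not pass the test (adjusted p = 0.057).

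The most reduced genes at this level were EREG, PLOD2, SERTAD2 and HK2. EREG, which encodes the EGF receptor ligand epiregulin, stood at 155, 154 and 159 CPM in the vector libraries and 94.4, 95.5 and 91.7 CPM in the T334A libraries, a 1.66-fold lower level without overlap (log2 fold change -0.73 ± 0.03, adjusted p = 8.6e-17). PLOD2, a lysyl hydroxylase of collagen, fell from 179.8 ± 7.81 to 118 ± 1.67 CPM, SERTAD2, a transcriptional coregulator, fell from 206 ± 3.25 to 136 ± 4.92 CPM, and HK2, the hexokinase that commits glucose to glycolysis in many tumours, fell from 152 ± 3.07 to 101 ± 6.203 CPM. HK2 was at 162 ± 7.31 CPM with MEL-18 WT, and the mutant lay below WT by -0.68 ± 0.04 (adjusted p = 9.7e-14). SERTAD2 and HK2 lie on chromosome 2 and PLOD2 on chromosome 3, among neighbours that were also shifted downward. Chromosome 3 as a whole had a median log2 fold change of 0.0075. SERTAD2, HK2 and PLOD2 kept their calls when the shift of the neighbours, described with the chromosomes, was taken out.

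In the abundant band the most raised genes were CRABP2, MDK, TGFBI and PTPRS. CRABP2, which carries retinoic acid to its nuclear receptor, stood at 17.3, 16.9 and 15.7 CPM in the vector libraries and 44.9, 46.3 and 48.7 CPM in the T334A libraries, 2.795-fold higher (log2 fold change 1.48 ± 0.05, adjusted p = 6.9e-19). The heparin-binding growth factor gene MDK (midkine) rose from 20.7 ± 0.249 to 53.3 ± 1.799 CPM, and TGFBI, a matrix protein induced by TGF-beta, rose from 24.4 ± 0.53004 to 60.2 ± 3.703 CPM. PTPRS, a receptor tyrosine phosphatase that binds proteoglycans, rose from 27.3 ± 0.876 to 60.5 ± 4.23 CPM. All 4 were also higher with MEL-18 T334A than with MEL-18 WT, by between 0.17 ± 0.04 (PTPRS) and 0.76 ± 0.04 (TGFBI) on the log2 scale.

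The reduced genes of this band were FAM65C, STXBP6, MAGEB2 and DUSP1. STXBP6, which encodes the SNARE-binding protein amisyn, stood at 55.03, 56.9 and 52.6 CPM in the vector libraries and 18.7, 18.9 and 21.4 CPM in the T334A libraries, so that the T334A libraries held less than any vector library (log2 fold change -1.48 ± 0.05, adjusted p = 3.2e-19). DUSP1, a phosphatase that switches off MAP kinases and is itself induced by them, fell without overlap, from 131, 136 and 129.9 CPM to 62.9, 67.3 and 66.5 CPM. FAM65C fell from 50.6 ± 5.94 to 16.996 ± 1.4001 CPM and was at 19.1 ± 1.24 CPM in WT cells, where the mutant did not differ from WT by the test (-0.17 ± 0.08, adjusted p = 0.079). MAGEB2, a cancer-testis antigen, fell from 47.7 ± 1.24 to 22.7 ± 0.517 CPM, while WT cells held 46.5 ± 2.06 CPM.

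**Figure D3:**
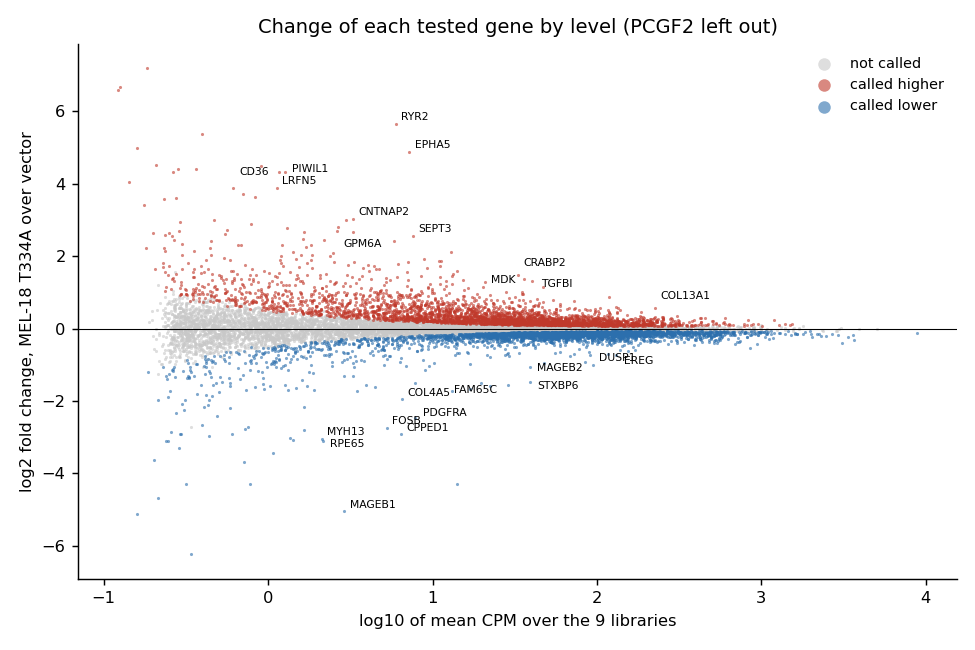
Log2 fold change of each of the 14737 tested genes, MEL-18 T334A over vector, against the log10 of its mean CPM over the 9 libraries. Grey points are genes not called, red and blue points genes called higher and lower, and part of the genes named by level carry their symbol; RYR2 at 5.65 and MAGEB1 at -5.06 stand farthest out among those named.

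The largest increases at 5 to 25 CPM came from genes that vector cells hardly expressed. RYR2, the calcium release channel of the heart and brain, stood at 0.274, 0.297 and 0.446 CPM in the vector libraries and 17.3, 18.1 and 16.1 CPM in the T334A libraries. It had 33 counts in the vector libraries together and 1768 in the T334A libraries, a ratio of 50.8 (exact 95% interval 36.1 to 74.1) after scaling, where the interval covers counting error only (log2 fold change 5.65 ± 0.14, adjusted p = 5.8e-22). EPHA5, an ephrin receptor of axon guidance, stood at 0.6097, 0.684 and 0.733 CPM in the vector libraries and 21.8, 19.9 and 18.6 CPM in the T334A libraries (log2 fold change 4.88 ± 0.11). RYR2 was at 0.363, 0.543 and 0.481 CPM and EPHA5 at 0.895, 0.977 and 0.963 CPM in the WT libraries, below every T334A library. SEPT3, a septin of neurons, rose from 2.33 ± 0.1396 to 13.8 ± 0.576 CPM, and GPM6A, a membrane glycoprotein of neurites, rose from 2.396 ± 0.506 to 12.8 ± 0.923 CPM.

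The reduced genes of the same band were CPPED1, FOSB, PDGFRA and COL4A5. CPPED1, a protein phosphatase, stood at 8.72, 8.14 and 8.67 CPM in the vector libraries and 1.05, 1.16 and 1.13 CPM in the T334A libraries, 7.604-fold lower without overlap (adjusted p = 6.2e-17). PDGFRA, a receptor of platelet-derived growth factor, moved in opposite directions with the constructs. It stood at 4.94, 3.95 and 4.17 CPM in the vector libraries and 0.806, 1.02 and 0.535 CPM in the T334A libraries and at 18.9, 18.1 and 18.4 CPM in the WT libraries, so that WT lay above and T334A below the vector, and the mutant differed from WT by -4.55 ± 0.12 on the log2 scale (adjusted p = 2.9e-21). COL4A5, a chain of basement membrane collagen, fell from 8.27 ± 0.289 to 2.13 ± 0.232 CPM, and WT cells held 9.18 ± 0.244 CPM. FOSB is described with the immediate early genes.

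At 1 to 5 CPM the raised genes were CD36, PIWIL1, LRFN5 and CNTNAP2. CD36, a scavenger receptor that takes up fatty acids, stood at 0.122, 0.149 and 0.191 CPM in the vector libraries and 3.35, 3.28 and 2.87 CPM in the T334A libraries, with 15 counts in the vector and 326 in the T334A libraries, a ratio of 20.6 (exact 95% interval 12.3 to 37.3). PIWIL1, a germline protein that binds piRNAs, stood at 0.183, 0.0892 and 0.0956 CPM in the vector libraries and 2.64, 2.83 and 2.09 CPM in the T334A libraries, with 12 counts in the vector libraries together. LRFN5, a synaptic adhesion protein, rose from 0.194 ± 0.0128 to 2.93 ± 0.01699 CPM, and CNTNAP2, a neurexin family protein of axons, rose from 0.728 ± 0.116 to 6.01 ± 1.02 CPM. In WT cells CD36 and LRFN5 stood at 0.174 ± 0.136 CPM and 0.258 ± 0.126 CPM, and PIWIL1 and CNTNAP2 at 1.16 ± 0.315 CPM and 3.17 ± 0.274 CPM.

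Among the reduced genes of this band were MAGEB1, RPE65 and MYH13. MAGEB1, a cancer-testis antigen beside MAGEB2 on the X chromosome, stood at 4.299, 4.82 and 4.81 CPM in the vector libraries and 0.124, 0.113 and 0.169 CPM in the T334A libraries, with 454 counts in the vector libraries and 14 in the T334A libraries, a vector over T334A ratio of 34.2 (exact 95% interval 20.2 to 63.01). RPE65, the retinoid isomerase of the eye, fell from 3.89 ± 0.302 to 0.443 ± 0.0892 CPM. MYH13, a myosin of eye muscles, fell from 2.93 ± 0.139 to 0.353 ± 0.139 CPM, with 36 counts in the T334A libraries together. The myosin genes of that cluster have an antisense transcript, and the strand setting of the counting is not given in the sources used here, so counts of antisense and overlapping genes are uncertain throughout.

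**Figure D4:**
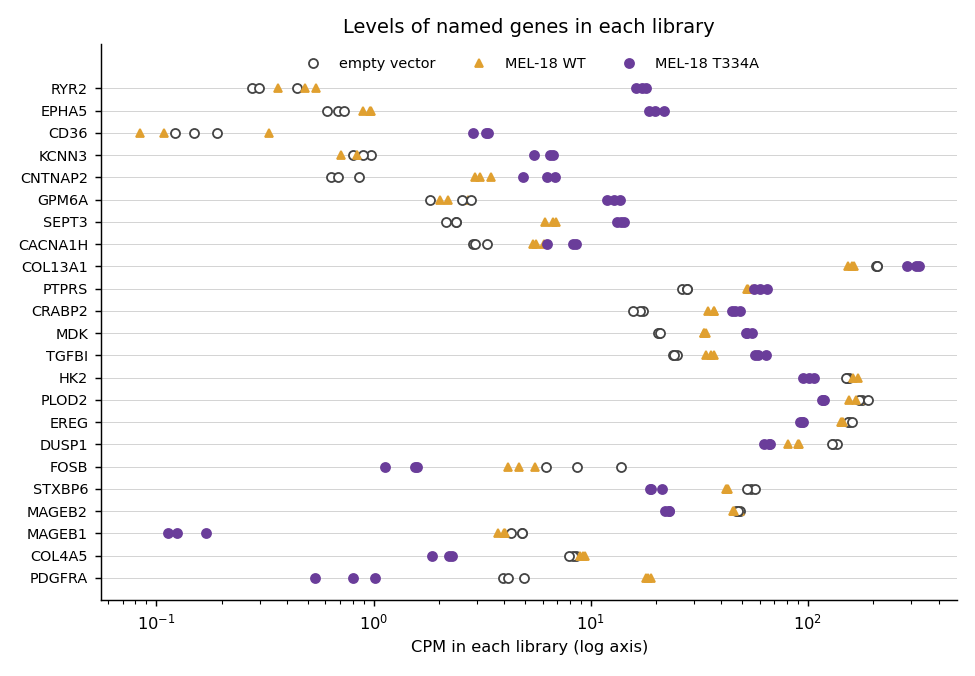
CPM of 23 named genes in each library, on a log axis. Open circles are the vector, triangles MEL-18 WT and filled circles MEL-18 T334A libraries; RYR2 and EPHA5 are far higher in the 3 T334A libraries than in the other 6, and PDGFRA is lowest with T334A and highest with WT.

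The promoters of 4 of these genes are shown as a description. They are the 2 most raised and the 2 most reduced among the genes named by level with a single start in the RefSeq table. Whether CpG content goes with the direction of change cannot be read from 4 genes. Each sequence runs from 250 bases before to 50 after the start on GRCh38.p14, in the gene's own direction, with every CpG in capitals. RYR2 lies on the plus strand at chr1:237041934-237042233, PIWIL1 on the plus strand at chr12:130337637-130337936, MYH13 on the minus strand at chr17:10372957-10373256 and RPE65 on the minus strand at chr1:68449905-68450204.
RYR2: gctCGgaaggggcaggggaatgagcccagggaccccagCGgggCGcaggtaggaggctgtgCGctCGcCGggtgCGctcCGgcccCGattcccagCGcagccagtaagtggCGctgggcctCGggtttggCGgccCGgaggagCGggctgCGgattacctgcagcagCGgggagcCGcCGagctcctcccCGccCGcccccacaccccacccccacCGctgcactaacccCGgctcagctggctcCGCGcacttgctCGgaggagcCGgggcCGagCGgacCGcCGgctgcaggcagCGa
PIWIL1: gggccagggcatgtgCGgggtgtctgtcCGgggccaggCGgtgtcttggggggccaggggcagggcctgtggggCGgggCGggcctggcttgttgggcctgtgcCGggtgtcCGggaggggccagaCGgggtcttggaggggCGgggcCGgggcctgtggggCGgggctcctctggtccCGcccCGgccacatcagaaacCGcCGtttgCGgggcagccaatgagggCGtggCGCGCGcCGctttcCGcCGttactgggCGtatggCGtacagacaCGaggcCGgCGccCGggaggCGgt
MYH13: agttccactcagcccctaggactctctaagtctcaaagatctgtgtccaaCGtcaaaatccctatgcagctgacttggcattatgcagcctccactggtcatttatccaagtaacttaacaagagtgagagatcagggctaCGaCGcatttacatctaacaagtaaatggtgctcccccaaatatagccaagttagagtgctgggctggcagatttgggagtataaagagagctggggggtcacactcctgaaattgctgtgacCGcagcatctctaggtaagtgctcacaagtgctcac
RPE65: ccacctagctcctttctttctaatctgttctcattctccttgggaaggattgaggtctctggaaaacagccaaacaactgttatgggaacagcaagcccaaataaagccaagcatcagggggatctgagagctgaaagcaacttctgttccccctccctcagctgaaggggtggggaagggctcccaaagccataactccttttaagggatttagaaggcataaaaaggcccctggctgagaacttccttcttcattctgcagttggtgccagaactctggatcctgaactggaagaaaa
They hold 32 (RYR2), 30 (PIWIL1), 4 (MYH13) and 0 (RPE65) CpG, and the median of the 35116 promoters of the table is 14. At least 32 CpG are found in 18.9% of the promoters in the table, at least 30 in 22.4%, at most 4 in 29.6% and 0 in 3.96%. A comparison of CpG content between raised and reduced genes was tried after the data were seen, in several versions that differed in the genes taken and in the start used where a gene had more than 1, and none is reported because too few genes had an entry. Of the protein-coding genes that changed more than 2-fold, 66.8% of 247 higher and 73.2% of 97 lower ones had an entry by symbol, and a check over less than 80% of a set is void.

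Genes of excitable cells rose more often than they fell, and among the 69 lists the channel list below had the largest share of raised members (68.4%). Among voltage-gated sodium and calcium channel subunits, which pass current across the cell membrane, 13 rose and 1 fell of 19 tested, with a median log2 fold change of 0.58, against 23.4% higher and 22.5% lower among all genes tested and a median near 0. CACNA1H, a T-type calcium channel, stood at 2.87, 3.33 and 2.93 CPM in the vector libraries and 8.28, 8.54 and 6.31 CPM in the T334A libraries, above every vector library (log2 fold change 1.34 ± 0.11, adjusted p = 3.7e-10). The accessory subunit gene CACNG7 rose from 1.41 ± 0.281 to 3.95 ± 0.392 CPM and SCN9A, a sodium channel of sensory neurons, rose from 4.19 ± 0.653 to 7.09 ± 0.107 CPM. In this list 21 of 40 genes had too few counts to be tested. Among potassium channel subunits, 15 rose and 7 fell of 38 tested, with a median log2 fold change of 0.22. Their shares were 39.5% and 18.4%. Low genes rose more often in general, with 22.8% higher and 10.4% lower at 1 to 5 CPM. At 5 to 25 CPM 31.8% of all genes were higher and 14.3% lower. KCNN3, a potassium channel opened by calcium, stood at 0.976, 0.803 and 0.892 CPM in the vector libraries and 6.51, 6.702 and 5.49 CPM in the T334A libraries and at 0.839, 0.705 and 0.842 CPM in the WT libraries.

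Synapse and neurite genes, which build contacts between neurons, moved in the same direction: 30 rose and 5 fell of 56 tested, with a median log2 fold change of 0.30. These were 53.6% and 8.93%, beside 31.8% and 14.3% of all genes at 5 to 25 CPM. Their summed level was 1349.5 ± 23.8 CPM in the vector and 1679 ± 47.8 CPM in the T334A libraries, with no test made on the sum. Among axon guidance ligands and receptors, 25 rose and 6 fell of 57 tested (43.9% and 10.5%), with a median log2 fold change of 0.18. PLXNB1, a semaphorin receptor, rose from 7.04 ± 0.204 to 17.3 ± 2.03 CPM, the netrin receptor gene UNC5B rose from 0.486 ± 0.207 to 1.41 ± 0.0826 CPM and EPHA7 rose from 1.61 ± 0.02797 to 3.92 ± 0.251 CPM. Of the defining markers of neurons, 3 could be tested and 0 were called. Of 8 neuron markers, 7 were below 1 CPM in all 6 libraries, and the summed level of the 8 ran from 8.93 to 9.59 CPM in the vector and from 8.90 to 9.58 CPM in the T334A libraries.

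Genes of calcium release and uptake inside the cell followed the channels, and 14 rose and 2 fell of 25 tested, with a median log2 fold change of 0.15. These were 56% and 8%, beside 23.4% and 22.5% of all genes. Besides RYR2, ATP2A3, a pump that returns calcium to the endoplasmic reticulum, rose from 2.67 ± 0.169 to 5.42 ± 0.897 CPM. The plasma membrane pump gene ATP2B4 rose from 77.6 ± 4.36 to 111 ± 8.25 CPM, and ORAI2, a channel of store-operated entry, rose from 30.95 ± 0.432 to 43.6 ± 3.76 CPM. ATP2B4 and ORAI2 stood at 82.9 ± 3.02 CPM and 30.9 ± 0.392 CPM in WT cells.

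Collagens, metalloproteinases and cadherins each had more members higher than lower. Of all genes at 5 to 25 CPM, 31.8% were higher and 14.3% lower. The shares were 53.6% and 10.7% for collagens, and 46.5% and 16.3% for metalloproteinases and their inhibitors. For cadherins and protocadherins they were 34.9% and 11.6%, near those of all genes at 5 to 25 CPM. Of collagens, 15 rose and 3 fell of 28 tested, with a median log2 fold change of 0.25. Their summed level was 777 ± 5.44 CPM in the vector and 1015 ± 43.6 CPM in the T334A libraries. COL13A1 alone held 207 ± 1.69 CPM of that sum in the vector and 309 ± 20.03 CPM in the T334A libraries. COL6A2 rose from 40.7 ± 1.49 to 70.1 ± 5.995 CPM and COL4A4 rose from 1.42 ± 0.0782 to 2.93 ± 0.261 CPM, whereas COL9A3 fell from 1.38 ± 0.307 to 0.684 ± 0.159 CPM. Among metalloproteinases and their inhibitors, which cut matrix proteins, 20 rose and 7 fell of 43 tested, with a median log2 fold change of 0.24. MMP1, a collagenase, rose from 0.644 ± 0.0565 to 2.41 ± 0.391 CPM and MMP11 rose from 1.95 ± 0.146 to 4.42 ± 0.335 CPM, but ADAMTS12 fell from 2.35 ± 0.214 to 0.528 ± 0.108 CPM. MMP1 was as high in WT cells, at 2.39 ± 0.117 CPM, and its difference from the mutant did not pass the test (0.01 ± 0.14, adjusted p = 0.96). Of cadherins and protocadherins, 15 rose and 5 fell of 43 tested, with a median log2 fold change of 0.02. CDH18, a cadherin of neurons, stood at 0.793, 0.505 and 0.573 CPM in the vector libraries and 4.16, 4.13 and 3.75 CPM in the T334A libraries and at 0.252, 0.461 and 0.271 CPM in WT libraries.

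Fibroblast markers were followed beside the matrix genes, since a change in cell makeup would also touch them. In bulk RNA, a change in the number of cells of a type and a change in RNA per cell cannot be told apart. Of 6 fibroblast markers, 3 could be tested and 2 rose, with a summed level of 15.4 to 16.2 CPM in the vector and 19.2 to 25.8 CPM in the T334A libraries. DCN, a defining gene of fibroblasts, had 0 counts in all 6 libraries, and 4 of the 6 markers stayed below 1 CPM.

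TGF-beta and BMP response genes rose more often than they fell, as 18 rose and 5 fell of 31 tested, with a median log2 fold change of 0.18. Their shares were 58.1% and 16.1%. At 5 to 25 CPM 31.8% of all genes were higher and 14.3% lower, and in the abundant band 24.4% and 29.4%. PMEPA1, a feedback inhibitor of the pathway, stood at 5.305, 4.85 and 4.52 CPM in the vector libraries and 14.1, 13.6 and 12.7 CPM in the T334A libraries, with no overlap (log2 fold change 1.46 ± 0.08, adjusted p = 4.3e-14). ID4, an inhibitor of helix-loop-helix factors, rose from 25.996 ± 1.11 to 51.9 ± 3.0996 CPM, and SMAD7, which blocks the receptors, rose from 4.28 ± 0.158 to 6.896 ± 1.02 CPM. WT cells held 7.18 ± 0.481 CPM of PMEPA1 and 26.3 ± 2.44 CPM of ID4, and the mutant exceeded WT at both, by 0.90 ± 0.07 and 0.98 ± 0.05. Among the ligands, INHBA, an activin subunit, rose from 0.674 ± 0.0668 to 1.82 ± 0.224 CPM, and BMP6 rose from 0.932 ± 0.0801 to 2.62 ± 0.415 CPM. BMP6 stood at 2.61 ± 0.337 CPM in WT cells, where no difference from the mutant was called (adjusted p = 0.99).

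Of mesenchymal markers and EMT regulators, 17 rose and 5 fell of 30 tested, with a median log2 fold change of 0.12. These shares were 56.7% and 16.7%, against 23.4% and 22.5% of all genes. S100A4, a calcium-binding protein of motile cells that belongs to this list, went against it, at 22.4, 25.1 and 24.3 CPM in the vector libraries and 7.88, 8.12 and 5.72 CPM in the T334A libraries, and stood at 8.21 ± 0.809 CPM in WT cells. Epithelial markers also rose in number, and 10 rose and 3 fell of 27 tested, with a median log2 fold change of 0.12. Their shares, 37.0% and 11.1%, lay near the 31.8% and 14.3% of all genes at 5 to 25 CPM. EPCAM rose from 7.47 ± 0.329 to 12.2 ± 0.362 CPM, CLDN7, a tight junction claudin, rose from 6.33 ± 0.448 to 10.3 ± 1.55 CPM, and CD24 rose from 4.37 ± 0.511 to 7.16 ± 0.359 CPM. Contractile actin cytoskeleton genes, which drive cell tension, showed 0.07 as their median, with 20 of 45 higher and 8 lower. These were 44.4% and 17.8%, beside 24.4% and 29.4% of all genes in the abundant band. MYLK, the kinase of myosin light chain, rose from 25.2 ± 0.4495 to 48.98 ± 3.79 CPM, ACTA2 rose from 1.12 ± 0.183 to 1.91 ± 0.227 CPM and FLNC rose from 271 ± 4.38 to 345 ± 17.7 CPM. Of 7 skeletal muscle markers, all were below 1 CPM in the 6 libraries, and 2 could be tested, both of which fell.

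Of Wnt feedback genes and inhibitors, 18 rose and 2 fell of 35 tested, with a median log2 fold change of 0.27. Their shares were 51.4% and 5.71%, beside 31.8% and 14.3% of all genes at 5 to 25 CPM. With GC content taken out, 5 of this list were lower. TCF7, a nuclear partner of beta-catenin, rose from 3.14 ± 0.338 to 5.69 ± 0.702 CPM, WNT10B rose from 2.65 ± 0.261 to 4.5999 ± 0.538 CPM and TCF7L1 rose from 5.81 ± 0.225 to 9.198 ± 0.335 CPM. WT cells held 5.07 ± 0.236 CPM of TCF7, 4.43 ± 0.456 CPM of WNT10B and 8.25 ± 0.242 CPM of TCF7L1, and no difference between the mutant and WT was called at these genes (adjusted p = 0.19, 0.74 and 0.078). Of Notch pathway genes, 10 rose and 4 fell of 24 tested (41.7% and 16.7%), with a median log2 fold change of 0.17. HES4, a transcriptional repressor induced by Notch, rose from 2.68 ± 0.261 to 5.59 ± 0.425 CPM, the ligand gene JAG2 rose from 3.25 ± 0.423 to 5.98 ± 0.693 CPM, and the receptor gene NOTCH3 fell from 2.41 ± 0.301 to 1.42 ± 0.156 CPM.

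Receptor tyrosine kinases rose at 19 and fell at 10 of 38 tested genes (50% and 26.3%, beside 23.4% and 22.5% of all genes). MUSK, the receptor of the neuromuscular junction, stood at 0.488, 0.535 and 0.319 CPM in the vector libraries and 2.95, 3.17 and 3.27 CPM in the T334A libraries and at 0.252, 0.353 and 0.361 CPM in WT libraries. Growth factor ligands were split, as 17 rose and 14 fell of 49 tested, with a median log2 fold change of 0.13, and their summed level was 4442 ± 77.5 CPM in the vector and 4005 ± 63.7 CPM in the T334A libraries. GDF15, a stress-induced ligand, stood at 8.26, 8.56 and 9.91 CPM in the vector libraries and 3.26, 3.82 and 2.25 CPM in the T334A libraries, lower without overlap (log2 fold change -1.52 ± 0.13, adjusted p = 3.6e-10), and at 13.1, 10.1 and 10.9 CPM in WT libraries.

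Of immediate early genes, which cells induce within minutes of a growth signal, more fell than rose. In that list 3 rose and 14 fell of 27 tested, with a median log2 fold change of -0.22, and with library totals the count of raised members was 7. FOSB stood at 13.7, 8.68 and 6.21 CPM in the vector libraries and 1.58, 1.13 and 1.55 CPM in the T334A libraries, where the vector libraries spread widely but stayed above every T334A library (log2 fold change -2.75 ± 0.22, adjusted p = 1.2e-10). FOS stood at 64.8, 56.3 and 56.2 CPM in the vector libraries and 30.02, 28.8 and 32.8 CPM in the T334A libraries, EGR1 fell from 38.3 ± 2.28 to 23.8 ± 0.653 CPM and NR4A2 fell from 4.35 ± 0.2403 to 2.57 ± 0.218 CPM. FOS and EGR1 were at 52.5 ± 1.76 CPM and 38.1 ± 1.02 CPM in WT cells, and both differed between mutant and WT, by -0.78 ± 0.05 and -0.68 ± 0.05. Over the whole list, 5 members were higher and 12 lower with MEL-18 WT than with the vector. The mutant was higher than WT at 4 and lower at 11 members. MAPK feedback inhibitors, which restrain the same signal, were divided, with 5 higher and 5 lower of 20 tested. DUSP9 rose from 0.856 ± 0.112 to 5.44 ± 0.301 CPM and DUSP8 rose from 2.28 ± 0.231 to 3.82 ± 0.256 CPM, while DUSP1, given above, and SPRED2 fell, the latter from 150.2 ± 2.72 to 119 ± 3.17 CPM, though with the shift of chromosomal neighbours taken out its call was lost, at -0.033 on the log2 scale (adjusted p = 0.41). With library totals, or without T334A replicate 3, 8 members of that list were higher.

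Inflammatory and interferon genes did not move one way. Of interferon-stimulated genes, 12 rose and 14 fell of 44 tested, with a median log2 fold change of -0.06. MX1, an antiviral GTPase, rose from 1.604 ± 0.132 to 3.797 ± 0.41000 CPM, and SAMD9L fell from 16.9 ± 1.36 to 12.2 ± 1.12 CPM. Among NF-kB target genes, 7 rose and 12 fell of 35 tested, with a median log2 fold change of -0.03, but 6 and not 12 fell with library totals, and the median then changed sign to 0.0072. With the shift of chromosomal neighbours taken out, 6 fell as well. NFKBIA, the inhibitor that NF-kB induces, fell from 38.3 ± 0.801 to 27.1 ± 0.589 CPM, the chemokine gene CXCL8 fell from 2.05 ± 0.204 to 1.15 ± 0.136 CPM and ICAM1 rose from 4.49 ± 0.302 to 6.32 ± 0.325 CPM. Of the interleukins, chemokines and their receptors, 11 rose and 9 fell of 43 tested. IL7R fell from 20.7 ± 0.619 to 12.9 ± 0.837 CPM and IL1R1 fell from 4.502 ± 0.559 to 2.31 ± 0.0635 CPM. Of 8 leukocyte markers, 7 were below 1 CPM in all 6 libraries.

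Among genes of the machinery that makes proteins, more fell than rose, by small steps. Of ribosome biogenesis factors, which assemble ribosomes in the nucleolus, 0 rose and 28 fell of 50 tested, with a median log2 fold change of -0.11. WDR43 stood at 206, 197 and 191 CPM in the vector libraries and 141, 137 and 157 CPM in the T334A libraries (log2 fold change -0.45 ± 0.04, adjusted p = 3.3e-10), NIP7 fell from 127 ± 6.17 to 99.7 ± 6.77 CPM and the RNA polymerase I subunit POLR1E fell from 105 ± 6.09 to 86.3 ± 7.24 CPM. Without T334A replicate 2, 18 and not 28 of them were called lower. Of cytosolic ribosomal proteins, 7 rose and 41 fell of 82 tested, with a median log2 fold change of -0.08. RPS27A fell from 786 ± 34.7 to 607 ± 18.4 CPM and RPL35A fell from 268 ± 12.9 to 210.4 ± 5.05 CPM. The count of lower ribosomal proteins was 25 with library totals, 24 without vector replicate 1 and 22 without T334A replicate 1, so that these 2 libraries bore on it. Among all genes, 29.4% were lower in the abundant and 46.3% in the most abundant band, and the shares of lower genes among ribosomal proteins (41 of 82), translation initiation factors (48.98%) and proteasome subunits (48.6%) were near the latter.

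Of translation initiation factors, 7 rose and 24 fell of 49 tested, with a median log2 fold change of -0.08. The scaffold gene EIF4G1 fell from 824 ± 9.02 to 652 ± 17.1 CPM, the helicase gene EIF4A2 fell from 596 ± 17.1 to 455 ± 16.8 CPM, and the cap-binding factor gene EIF4E3 rose from 8.62 ± 0.485 to 14.01 ± 0.976 CPM. Of mitochondrial ribosomal proteins, 5 rose and 28 fell of 77 tested, with a median log2 fold change of -0.07. Their share of lower genes (36.4%) lay between those of all genes in the abundant and the most abundant band (29.4% and 46.3%). MRPL19 stood at 140.1, 135 and 139.8 CPM in the vector libraries and 102, 99.6 and 104 CPM in the T334A libraries. Small nucleolar RNA host genes, whose introns carry the guides of ribosomal RNA modification, followed, as 1 rose and 10 fell of 21 tested, with a median log2 fold change of -0.19. SNHG3 fell from 102 ± 3.83 to 76.6 ± 4.26 CPM and SNHG16 fell from 148 ± 3.07 to 117 ± 8.15 CPM, and both stood in WT cells near the vector, at 101 ± 1.98 CPM and 149.8 ± 5.65 CPM.

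In the lists of splicing and protein folding genes, more members fell than rose. Of SR proteins and spliceosome core genes, 1 rose and 25 fell of 47 tested, with a median log2 fold change of -0.09, and with library totals 16 and not 25 were lower. SNRPG fell from 138 ± 10.8 to 103 ± 4.16 CPM and SF3B3 fell from 409 ± 5.84 to 347 ± 8.99 CPM. Of heterogeneous nuclear ribonucleoproteins, 0 rose and 12 fell of 22 tested, with a median log2 fold change of -0.08. Lower genes made up 53.2% of the SR and spliceosome list and 54.5% of these ribonucleoproteins. The shares among all genes were 29.4% in the abundant and 46.3% in the most abundant band. Of the chaperonin TRiC and prefoldin genes, which fold actin and tubulin, 1 rose and 9 fell of 14 tested, with a median log2 fold change of -0.14. CCT4 stood at 498, 486 and 469.7 CPM in the vector libraries and 369.9, 367 and 393 CPM in the T334A libraries (log2 fold change -0.36 ± 0.03, adjusted p = 1.9e-10). It lies on chromosome 2, where its neighbours had a median of -0.24, and it kept its call with that shift taken out. The median neighbour shift over the TRiC and prefoldin list was -0.022. Of cytosolic heat shock proteins and co-chaperones, 4 rose and 21 fell of 31 tested, with a median log2 fold change of -0.17, the largest share of lower members among the 69 lists (67.7%). HSP90AA1, the inducible cytosolic HSP90, stood at 3550.4, 3345 and 3381 CPM in the vector libraries and 2533, 2436 and 2806 CPM in the T334A libraries (log2 fold change -0.40 ± 0.04, adjusted p = 1.4e-09), HSPA8, the constitutive HSP70, fell from 3837 ± 151 to 3094 ± 199 CPM, and WT cells held 3263 ± 35.2 CPM and 4011 ± 125.3 CPM. Of proteasome subunits, 0 rose and 18 fell of 37 tested, with a median log2 fold change of -0.07, and 11 and not 18 were lower with library totals, without vector replicate 1 or without T334A replicate 1. PSMD12 fell from 157 ± 4.93 to 136 ± 6.33 CPM. Endoplasmic reticulum chaperones and genes of the unfolded protein response had 4 higher and 14 lower of 33 tested. Their share of lower genes (42.4%) lay between those of all genes in the abundant and the most abundant band (29.4% and 46.3%). SSR3 fell from 467 ± 6.41 to 372 ± 22.04 CPM. MANF rose from 64.9 ± 2.36 to 77.5 ± 1.41 CPM, a call that was lost with the shift of chromosomal neighbours taken out (0.036, adjusted p = 0.44).

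In the lists of growth and division genes, more members fell than rose as well. Of nucleotide synthesis genes, 5 rose and 20 fell of 33 tested, with a median log2 fold change of -0.12. CAD, the enzyme that starts pyrimidine synthesis, stood at 237, 232 and 223 CPM in the vector libraries and 183, 179 and 192 CPM in the T334A libraries (log2 fold change -0.32 ± 0.03, adjusted p = 1.0e-08) and at 227 ± 9.29 CPM in WT cells. GMPS fell from 175 ± 3.303 to 135 ± 4.87 CPM, and RRM2, a subunit of ribonucleotide reductase, fell from 437 ± 18.7 to 357 ± 26.2 CPM. Mitosis and spindle genes had 5 higher and 28 lower of 49 tested. ECT2, an exchange factor of cytokinesis, fell from 452 ± 2.203 to 330.4 ± 10.6 CPM, SMC4, a condensin subunit, fell from 585 ± 7.87 to 471 ± 10.99 CPM and CENPA fell from 44.6 ± 2.53 to 35.1 ± 1.66 CPM. Of DNA damage repair genes, 11 rose and 23 fell of 59 tested, or 4 and 13 with the shift of chromosomal neighbours taken out. Among all genes, 29.4% were lower in the abundant and 46.3% in the most abundant band. The share of lower genes lay between these for DNA damage repair (39.0%) and above both for nucleotide synthesis (60.6%) and mitosis and spindle (57.1%). The replication gene POLA1 fell from 84.8 ± 2.65 to 67.8 ± 3.47 CPM. CAD and CENPA lie on chromosome 2 and ECT2 on chromosome 3, among neighbours that were also shifted downward. The neighbours of CAD, CENPA and ECT2 had median log2 fold changes of -0.21, -0.20 and -0.24. CAD, CENPA and ECT2 kept their calls with that shift taken out. Over all tested members, the median neighbour shift was -0.044 for nucleotide synthesis and -0.0098 for mitosis and spindle.

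Metabolic lists held calls in both directions. Of respiratory chain and ATP synthase subunits, 10 rose and 7 fell of 76 tested, with a median log2 fold change of 0.02, fewer calls than the 45.9% of all genes, and 20 were higher with library totals and 19 without vector replicate 1. Of glycolysis enzymes, 5 rose and 7 fell of 23 tested, with a median log2 fold change of -0.04, and 12 fell with the shift of chromosomal neighbours taken out. The glucose transporter gene SLC2A1 fell from 231.1 ± 4.69 to 187 ± 2.32 CPM beside HK2, while ENO2 rose from 83.8 ± 1.74 to 98.2 ± 5.45 CPM and ALDOC rose from 50.9 ± 2.64 to 60.5 ± 3.55 CPM. Of sterol and fatty acid synthesis genes, 6 rose and 11 fell of 34 tested, with a median log2 fold change of -0.01. With library totals 4 of them were lower and 9 higher, without vector replicate 3 the lower count was 5, and without T334A replicate 1 or 2 it was 7, so that no direction held. Of tricarboxylic acid cycle enzymes, 8 rose and 5 fell of 26 tested, and 1 fell with library totals or with the shift of chromosomal neighbours taken out, 2 without vector replicate 3 and 3 without vector replicate 1 or T334A replicate 2. In that list IDH2 rose from 14.5 ± 0.891 to 22.4 ± 0.925 CPM and PCK2 rose from 25.2 ± 1.49 to 33.3 ± 1.604 CPM.

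Of 219 tested solute carriers, 59 rose and 33 fell (26.9% and 15.1%), beside 23.4% and 22.5% of all genes. SLC29A4, a monoamine transporter, rose from 1.08 ± 0.343 to 4.35 ± 0.296 CPM, SLC12A7, a potassium chloride cotransporter, rose from 2.704 ± 0.282 to 9.33 ± 0.105 CPM and SLC4A4, a bicarbonate cotransporter, rose from 2.74 ± 0.136 to 6.01 ± 0.127 CPM. CA12, a carbonic anhydrase of the cell surface, stood at 15.5, 15.5 and 17.8 CPM in the vector libraries and 31.05, 33.4 and 33.98 CPM in the T334A libraries and at 36.6, 32.3 and 34.98 CPM in WT libraries, and CA9, its relative induced by hypoxia, fell from 5.11 ± 0.845 to 2.99 ± 0.556 CPM. FTL, the ferritin light chain, fell from 993 ± 49.3 to 683 ± 24.1 CPM.

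**Figure D5:**
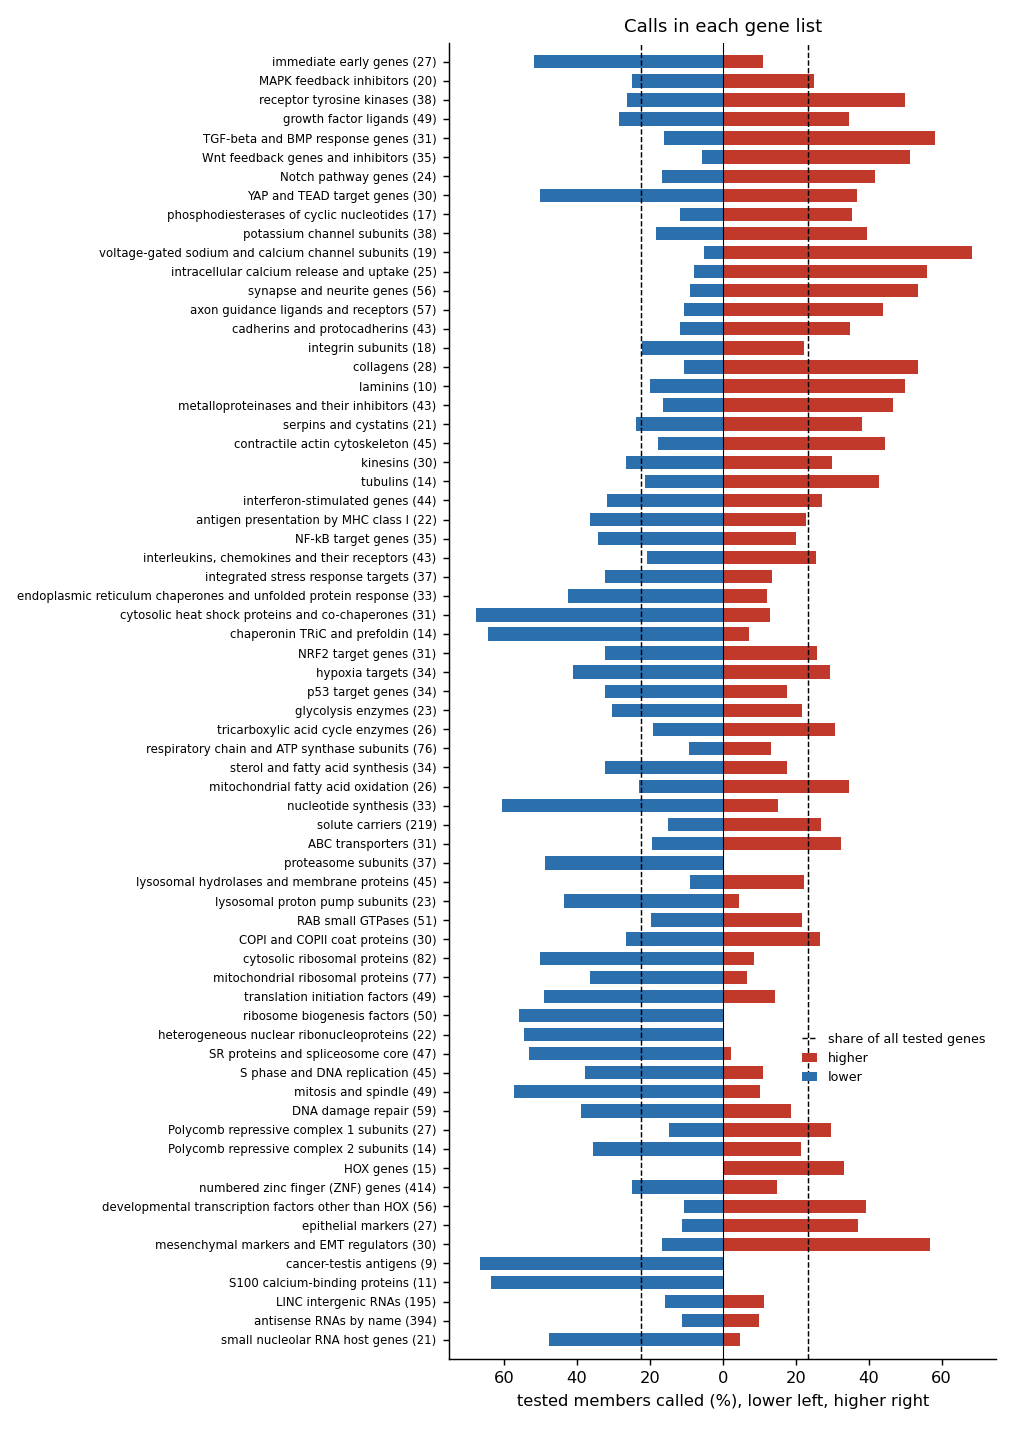
Share of the tested members of each of 68 gene lists called higher (red, to the right) and lower (blue, to the left) with MEL-18 T334A, in percent, with the number tested in brackets. Dashed lines mark the shares among all tested genes, 23.4% higher and 22.5% lower; channel and synapse lists reach far to the right, and ribosome, spliceosome and chaperone lists to the left.

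The other subunits of the Polycomb complexes changed little. Of PRC1 subunits other than PCGF2, 8 rose and 4 fell of 27 tested, all by less than 2-fold. PHC3 fell from 83.9 ± 1.26 to 66.8 ± 1.13 CPM, PCGF1, a paralog of MEL-18, fell from 13.2 ± 0.645 to 11.2 ± 0.532 CPM, and FBRSL1 rose from 25.8 ± 1.95 to 32.4 ± 1.52 CPM. The call of PCGF1 was lost with the shift of chromosomal neighbours taken out (-0.066 on the log2 scale, adjusted p = 0.46). Of PRC2 subunits, 3 rose and 5 fell of 14 tested, but 2 fell with library totals and 3 with GC content taken out, without vector replicate 1 or 3 and without T334A replicate 1 or 2. SUZ12, a core subunit, fell from 208 ± 4.78 to 189 ± 6.54 CPM. MTF2, which brings PRC2 to CpG islands, fell from 92.8 ± 2.81 to 85.9 ± 2.17 CPM, but this call was lost with library totals, with GC content taken out, with the shift of chromosomal neighbours taken out and without vector replicate 3 or T334A replicate 2.

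Among genes that Polycomb complexes are known to bind, developmental transcription factors other than HOX had 22 higher and 6 lower of 56 tested, with a median log2 fold change of 0.08, and 3 were lower with library totals or without vector replicate 2 or 3. MEIS3, a homeodomain cofactor of HOX proteins, stood at 1.83, 1.902 and 1.98 CPM in the vector libraries and 6.08, 7.47 and 5.78 CPM in the T334A libraries, above all vector libraries (log2 fold change 1.76 ± 0.13, adjusted p = 1.4e-11). PRRX1, a mesenchymal homeobox gene, rose from 0.797 ± 0.0252 to 2.54 ± 0.123 CPM, LHX6 rose from 2.04 ± 0.543 to 5.28 ± 0.537 CPM and DLX4 rose from 2.96 ± 0.128 to 5.75 ± 0.268 CPM. PRRX1 and DLX4 stood at 2.21 ± 0.185 CPM and 4.99 ± 0.0563 CPM in WT cells, and neither differed from the mutant by the test. Of 15 tested HOX genes, 5 rose and 0 fell, all below 2-fold, and 24 of 39 had too few counts. Their share of raised genes, 33.3%, was near the 31.8% of all genes at 5 to 25 CPM. For the developmental factors other than HOX, the shares were 39.3% higher and 10.7% lower. All genes had 22.8% and 10.4% at 1 to 5 CPM, and 31.8% and 14.3% at 5 to 25 CPM. HOXB9 rose from 11.6 ± 0.277 to 17.2 ± 1.46 CPM and HOXC10 rose from 2.74 ± 0.231 to 3.88 ± 0.50004 CPM.

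Numbered zinc finger genes, most of them repressors of repeated elements, had 61 higher and 103 lower of 414 tested. These shares were 14.7% and 24.9%, beside 23.4% and 22.5% of all genes, so that the share of raised members was low and that of lower members near the rest. With library totals, 70 were higher and 69 lower. ZNF81 stood apart within the list, at 6.19, 6.03 and 6.56 CPM in the vector libraries and 28.1, 26.04 and 26.8 CPM in the T334A libraries, and at 5.004, 5.86 and 5.68 CPM in WT libraries. Cancer-testis antigens, which are silent in most normal tissues outside the germline, had 0 higher and 6 lower of 9 tested, and 97 of 106 listed genes had too few counts. MAGEA1 fell from 1.54 ± 0.3496 to 0.187 ± 0.162 CPM and MAGEA12 fell from 1.68 ± 0.131 to 0.554 ± 0.0306 CPM, beside MAGEB1 and MAGEB2. Reads of these near-identical family members may be shared among them. S100 calcium-binding proteins had 0 higher and 7 lower of 11 tested, with S100A6 falling from 672 ± 11.5 to 556 ± 40.04 CPM.

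Of 832 tested genes annotated as long noncoding RNA in RefSeq, 85 were higher and 126 lower. These shares, 10.2% and 15.1%, were both below the 23.4% and 22.5% of all genes, and the median gene of this class had 39.1 counts per library. NFYC-AS1, an antisense RNA at NFYC, held the largest change of that class among named genes, at 41.6, 36.7 and 36.1 CPM in the vector libraries and 2.202, 1.95 and 1.66 CPM in the T334A libraries, without overlap (log2 fold change -4.30 ± 0.09, adjusted p = 1.1e-23). It was as low in WT cells, at 2.097, 1.76 and 1.89 CPM, and the mutant did not differ from WT by the test (0.01 ± 0.16, adjusted p = 0.97). LINC01207 fell from 12.3 ± 0.696 to 6.04 ± 0.464 CPM, LINC01551 rose from 5.56 ± 0.502 to 10.6 ± 0.4702 CPM and PRKAG2-AS1 rose from 0.478 ± 0.113 to 1.71 ± 0.0972 CPM.

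Calls were not spread evenly over the chromosomes. On chromosome 10, 54.3% of 580 genes were higher and 8.79% lower, and on chromosome 18, 52.6% of 211 were higher and 10.4% lower. On chromosome 2, 14.6% of 939 genes were higher and 40.04% lower, and on chromosome 4, 18.3% of 536 were higher and 35.1% lower. The median log2 fold changes were 0.16 on chromosome 10, 0.16 on chromosome 18, -0.093 on chromosome 2 and -0.065 on chromosome 4. Order along the chromosome was taken from RefSeq on GRCh38, with no coordinates of the files. Of the genes whose 20 expressed neighbours on each side had a median change of 0.1 or more, 53.2% were higher and 4.96% lower, and of those whose neighbours had a median of -0.1 or less, 8.49% were higher and 52.1% lower. These 2 classes held 13.1% and 10.1% of the placed genes. When the shift of the neighbours was taken out, 5728 genes were called. Of these, 4642 were also called in the same direction in the main fit, which called 6764 genes.

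Set beside the wild-type protein, MEL-18 T334A differed at 6033 genes (40.9%), of which 3089 (21%) were higher and 2944 (20%) lower than with MEL-18 WT. That test rests on the same T334A libraries as the one against the vector. Of the 32 genes named by level in the 4 bands from 1 CPM upward, FAM65C and EEF1A2 were the ones where the mutant and WT did not differ by the test. In the groups of function, ribosome biogenesis factors were lower than with WT at 39 of 50 tested genes and higher at 0, and synapse and neurite genes were higher at 24 and lower at 7 of 56. PCGF2 itself was higher in the mutant than in the WT cells by 0.14 ± 0.03 on the log2 scale (adjusted p = 1.5e-04), and the part of this difference in dose in the results was not tested.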

How the data were processed

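The deposited files hold read counts per gene symbol, which the authors made on hg19 with STAR 2.5.3a after CASAVA 1.8 and counted with featureCounts of Subread 1.5.3, per the submitters' processing notes. The kit was a stranded poly(A) kit, per the labels' protocols; the sources used here give no annotation, strand setting or handling of multiply mapped reads.

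Genes passing edgeR's filterByExpr (14738 of 26364) were fitted over all 9 libraries with edgeR 4.0.16 (quasi-likelihood F test, two-sided, TMM, no replicate term, 6 residual degrees of freedom) with p-values adjusted by Benjamini-Hochberg over all genes and a threshold of 0.05. The biological coefficient of variation was 2.57%. Depths were 31643722 to 35314497 counts in the compared libraries. On simulated counts for this comparison (14738 genes) the fit recovered 84% of 1.2-fold and 98% of 1.5-fold changes, and 5 of its 196 calls were false. The simulation changed a far smaller share of genes than was called here, all of them with ample counts. Each gene had the spread typical of its level, and no trend with GC content or chromosomal neighbours was put in. These rates therefore do not carry over to genes of few counts or to such trends. Intervals of count ratios are exact 95% binomial and cover counting error only. Replicate pairs of the compared groups had a chi-square per degree of freedom of 1.75 to 4.14, so each pair differed by more than sampling noise.

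The comparison, the 69 gene lists and the 7 marker sets were chosen with earlier results of these data known. Named genes were, in each band from 1 CPM upward of mean CPM over 9 libraries (edges at 1, 5 and 25 CPM and at 5 times 25 CPM), the 4 called genes of most positive and of most negative change whose libraries did not overlap, leaving out PCGF2 and uncharacterised, antisense, small RNA, LINC and read-through names, then up to 4 called members of each list by absolute change with a mean of at least 1 CPM, and PCGF2. The text gives part of them, and some results are not reported here. GC content came from GENCODE v29 transcripts (93.8% of tested genes matched), gene type, order and promoters from RefSeq on GRCh38.p14, where 14423 tested genes matched by symbol. Alternatives were DESeq2 1.42.0, RLE factors, library totals, no filter, at least 1 CPM in 3 libraries, a replicate term, the 6 libraries alone, a minimum change of 1.5-fold, limma 3.58.1 voom, the neighbour shift taken out, GC content taken out (chosen after the data were seen) and each library left out.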

Additional observations from a re-analysis of the deposited data

How the results depend on the processing

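Among the alternatives run, the number of genes called was 5733 with DESeq2, 6760 with RLE factors, 6598 with library totals, 6684 without a filter, 6528 with at least 1 CPM in 3 libraries, 6368 with the 6 libraries alone, 6719 with limma voom, 5728 with the neighbour shift taken out and 6697 with GC content taken out. Calls that matched the main fit in direction numbered 4642 with the neighbour shift taken out and 5865 with GC content taken out. Against a minimum change of 1.5-fold, 377 genes were called, 282 higher and 95 lower, and 195 of the 279 named genes were not called. With at least 1 CPM in 3 libraries, 222 and not 398 genes were more than 2-fold changed, since that filter tests fewer low genes. Leaving out 1 library at a time gave 5842 to 6856 called genes, 3131 to 3530 higher and 2694 to 3326 lower, and 405 to 458 changed more than 2-fold.

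The replicate numbers did not pair the samples: deviations of same-numbered vector and T334A libraries correlated at -0.12, 0.061 and -0.17. With a replicate block, 6495 genes were called, and 1 of 279 named genes lost its call.

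With the neighbour shift taken out, 8 named genes changed sign on the log2 scale, among them BUB3 to -0.027, ECHS1 to -0.082, HNRNPLL to 0.027, SRSF7 to 0.045, MDH1 to 0.11, CCT7 to 0.014 and NDUFB4 to 0.0075, and 25 others lost their call. With library totals the median of NF-kB targets, sterol synthesis, PRC2 subunits, integrated stress response targets, p53 targets and 5 other lists changed sign. Depth limits the band under 1 CPM, where the median gene had 15.5 counts per library.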

Other observations

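Other groups of genes were also described by their counts. YAP and TEAD target genes were divided, with 11 higher and 15 lower of 30 tested, where 9 were lower with library totals and 6 higher with the neighbour shift taken out. CRIM1 fell from 604 ± 9.27 to 477 ± 19.04 CPM, though its call was lost with the neighbour shift taken out, and FOXF2, a forkhead factor, rose from 15.1 ± 0.374 to 23.2 ± 0.9404 CPM. Of RAB GTPases, RAB17, which acts in epithelial traffic, fell from 12.3 ± 0.917 to 5.57 ± 1.08 CPM. Of lysosomal proton pump subunits, 1 rose and 10 fell of 23 tested, while lysosomal hydrolases and membrane proteins had 10 higher and 4 lower of 45.

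The band of genes under 1 CPM held 127 genes more than 2-fold higher and 79 more than 2-fold lower with MEL-18 T334A. In that band 11.9% of 1895 genes were higher and 6.70% lower.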
